A study of Mus musculus with 9 samples.

Results

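The circadian clock and output genes are 10 genes of the molecular day clock, and all 10 were found by symbol among the 21983 genes of the count table and passed the filter on low counts that 14739 genes passed. They are Arntl and Npas2 (activators), Per1, Per2, Per3, Nr1d1 and Nr1d2 (repressors), and Dbp, Tef and Hlf (output factors). They were chosen by their counts in these same libraries, above all those of BSYQF replicate 1, so their levels and changes are given below as a description and no test is read from them. Whole lung RNA of BALB/c mice was sequenced in 3 groups with 3 libraries each. The BSYQF group had a chronic asthma model and received a Chinese herbal mixture, the Bu-Shen-Yi-Qi formula, by mouth for 6 weeks at 20 g of raw herbs per kg of body weight. The asthma group had the same model and received saline by mouth, and the control group was of normal mice given saline. Oral dosing began on day 14 in all 3 groups. How the model was made, the age and sex of the mice and the hour at which lungs were taken were not given in the sources used here. Whether every library is of its own mouse is not stated, so a p-value here measures spread among libraries, part of which may be technical.

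The mammalian clock is a loop of transcription and translation that runs in nearly every cell, including those of the airway and alveoli. BMAL1, the product of Arntl, pairs with CLOCK or its relative NPAS2 and switches on genes that carry E-box sequences, among them the Per, Cry, Nr1d and Dbp genes. The PER and CRY proteins then shut BMAL1 activity off, while REV-ERB alpha and beta, the products of Nr1d1 and Nr1d2, repress Arntl and Npas2 through elements that ROR activators also use. DBP, TEF and HLF are related transcription factors of the PAR bZIP family. They activate D-box genes, which NFIL3 represses, and carry the daily rhythm to metabolic and detoxifying genes. In mouse tissues Arntl and Npas2 RNA therefore peaks at about the opposite time of day from Dbp and Nr1d1 RNA, with Per3, Tef and Per1 following and Per2 and Cry1 later.

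All libraries had counts of lung epithelium markers, among them the surfactant gene Sftpc and the club cell gene Scgb1a1, and the 8 such markers summed to 48500 to 72700 CPM (counts scaled by library size) in BSYQF, 49100 to 71800 CPM in asthma and 43100 to 57600 CPM in control libraries. Total counts were 16286385 to 22819199 per library, so 3 counts stood for 0.131 to 0.184 CPM before scaling. Arntl and Npas2 had 14 to 296 counts per library, and the other 8 genes 84 to 8772. Asthma replicate 2 stood apart over the whole table, as the lowest of the 9 libraries in 21.7% and the highest in 21.9% of all genes tested, but among the 10 clock genes it was the lowest only in Hlf and the highest in 0. Levels are CPM scaled with edgeR's TMM factors, as mean ± SD over 3 libraries where a mean is given.

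Per kilobase of annotated exon, Tef was the most abundant clock gene in control lungs at 52.5 ± 8.02 CPM per kb (SD, n = 3). Nr1d1 (44.5 ± 24.4), Nr1d2 (40.5 ± 6.97), Dbp (33.8 ± 17.5) and Per1 (30.7 ± 3.65) followed, each within the spread of its neighbour in that order. Per2 (16.7 ± 6.39), Hlf (10 ± 1.46) and Per3 (8.99 ± 1.01) were lower, Hlf and Per3 within each other's spread, and Arntl (0.769 ± 0.225) and Npas2 (0.317 ± 0.16) were the lowest, again on the scale of CPM per kb. Tef was also the highest in asthma lungs (32.4 ± 9.23 CPM per kb) and in BSYQF lungs (33.1 ± 14.6 CPM per kb), and in both of these groups Arntl and Npas2 were the lowest. On mm10 the plus-strand genes Dbp and Arntl span chromosome 7 bases 45705088 to 45710203 and 113207465 to 113314126. The minus-strand genes Nr1d1 and Hlf span chromosome 11 bases 98767932 to 98775333 and 90336536 to 90390895, and Per2, also on the minus strand, spans chromosome 1 bases 91415982 to 91459324. All 10 genes are annotated as protein coding. Dbp shares 539 exon bases (18% of its own) with Sphk2 on the opposite strand and Nr1d1 shares 263 (8.55%) with Thra. The strand setting of the counting is not stated, so reads of these stretches could not be assigned with certainty. Sphk2, a sphingosine kinase, had 46.7, 40.1 and 38.2 CPM in BSYQF, 41, 49 and 42.9 CPM in asthma and 39.4, 35.5 and 41 CPM in control libraries. Thra, a thyroid hormone receptor, had 72.3, 90.5 and 88.6 CPM in BSYQF, 55.9, 38.5 and 86.4 CPM in asthma and 87.1, 126 and 116 CPM in control libraries.

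Promoters are shown for 4 genes whose start region holds the letters that the loop is known to use. The windows reach from 250 bases before to 50 bases after an annotated start (RefSeq, GRCm38.p6, the C57BL/6J reference genome and not BALB/c), and 9 of the 10 genes had 12 such windows in all. Capitals mark the E-box CACGTG, the related sequence CACGTT and the D-box TTATGTAA, on either strand, and the 3 motifs do not overlap here. Per1 (chr11:69098699-69098998, plus strand) holds an E-box that begins 166 bases before the start, Tef (chr15:81802423-81802722, plus strand) one at 127 bases, and Nr1d1 (chr11:98775328-98775627, minus strand) holds CACGTT, read here on the other strand as AACGTG, at 28 bases. Per3 (chr4:151044616-151044915, minus strand) holds a pair of D-boxes, at 205 and 158 bases before the start.
Per1: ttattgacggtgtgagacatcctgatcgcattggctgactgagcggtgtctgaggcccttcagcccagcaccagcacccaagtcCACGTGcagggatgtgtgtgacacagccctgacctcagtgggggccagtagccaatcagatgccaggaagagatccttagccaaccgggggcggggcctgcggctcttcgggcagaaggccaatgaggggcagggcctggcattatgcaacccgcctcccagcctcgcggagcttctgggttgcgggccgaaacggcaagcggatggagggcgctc
Tef: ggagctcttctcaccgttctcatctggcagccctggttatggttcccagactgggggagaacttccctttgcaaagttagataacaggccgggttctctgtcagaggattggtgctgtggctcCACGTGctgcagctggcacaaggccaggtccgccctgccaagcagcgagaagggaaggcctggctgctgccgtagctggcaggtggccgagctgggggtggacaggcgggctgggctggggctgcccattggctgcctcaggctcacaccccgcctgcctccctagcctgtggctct
Nr1d1: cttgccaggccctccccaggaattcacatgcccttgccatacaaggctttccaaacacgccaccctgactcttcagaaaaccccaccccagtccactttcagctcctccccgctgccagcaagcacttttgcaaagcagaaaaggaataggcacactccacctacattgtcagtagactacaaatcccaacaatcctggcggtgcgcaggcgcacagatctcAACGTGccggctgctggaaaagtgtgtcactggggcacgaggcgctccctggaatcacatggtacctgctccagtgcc
Per3: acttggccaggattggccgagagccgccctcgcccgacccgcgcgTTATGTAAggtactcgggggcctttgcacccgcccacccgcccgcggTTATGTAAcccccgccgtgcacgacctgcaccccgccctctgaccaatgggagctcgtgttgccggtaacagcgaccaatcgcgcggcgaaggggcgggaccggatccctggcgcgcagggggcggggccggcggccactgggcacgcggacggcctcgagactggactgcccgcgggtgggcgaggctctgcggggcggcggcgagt

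Among 32851 promoter windows of mouse genes of the same length, 7.15% held the E-box, 4.68% held CACGTT and 0.938% held the D-box. Of the 12 windows of the clock genes, 3 held an E-box (1 of Per1 and both of Tef), 1 held CACGTT and 1 held a D-box. A match is a string of letters and not a measured binding site. Windows of this length leave out distal elements.

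BSYQF replicate 1 stood apart in nearly every clock gene. Arntl had 17.9, 5.58 and 10.7 CPM in BSYQF replicates 1, 2 and 3, against 5.72, 5.98 and 5.65 CPM in asthma and 4.27, 7.61 and 5.48 CPM in control libraries. Npas2 had 15.7, 2.38 and 3.07 CPM in BSYQF, against 3.51, 2.82 and 1.88 CPM in asthma and 1.4, 0.819 and 2.34 CPM in control libraries. BSYQF replicate 1 thus had the most RNA of both activators among the 9 libraries, 5.77 times the mean of the other BSYQF libraries for Npas2 and 2.2 times for Arntl. The BSYQF libraries overlapped the asthma libraries in both genes.

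Dbp, an output factor with one of the widest daily swings of the loop, was the most uneven of the 10 genes within the BSYQF group. It had 5.09, 95.3 and 52.9 CPM in BSYQF, against 36.1, 57.5 and 48.8 CPM in asthma and 41.4, 140 and 122 CPM in control libraries. Nr1d1 had 7.57, 90.9 and 69 CPM in BSYQF, against 45.5, 55.1 and 67.4 CPM in asthma and 50.4, 173 and 187 CPM in control libraries. BSYQF replicate 1 was the lowest of the 9 libraries in both genes, and its counts were 84 for Dbp and 125 for Nr1d1, where the next lowest libraries had 638 and 804. The mean of BSYQF replicates 2 and 3 was 14.6 times replicate 1 for Dbp and 10.6 times for Nr1d1. Nr1d2, the second REV-ERB gene, had 38.1, 197 and 153 CPM in BSYQF, against 104, 124 and 159 CPM in asthma and 177, 250 and 230 CPM in control libraries.

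The Per genes and Tef were low in the same library, by a smaller factor. Per3 had 25.4, 72.6 and 65.9 CPM in BSYQF, against 54.2, 61 and 61.1 CPM in asthma and 97.3, 82.7 and 79 CPM in control libraries. Per1, which glucocorticoids also induce, had 66, 185 and 113 CPM in BSYQF, against 111, 110 and 151 CPM in asthma and 186, 183 and 149 CPM in control libraries. Tef had 142, 371 and 269 CPM in BSYQF, against 199, 229 and 337 CPM in asthma and 474, 417 and 348 CPM in control libraries. In BSYQF the mean of replicates 2 and 3 was 2.72 times replicate 1 for Per3, 2.25 times for Per1 and 2.26 times for Tef. Per2 had 40.6, 81 and 76.9 CPM in BSYQF, against 62.8, 51.8 and 76.5 CPM in asthma and 139, 88.7 and 65.8 CPM in control libraries. Hlf was the exception: BSYQF replicate 1, at 18.3 CPM, was the third lowest library, above asthma replicates 1 and 2.

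**Figure D1:**
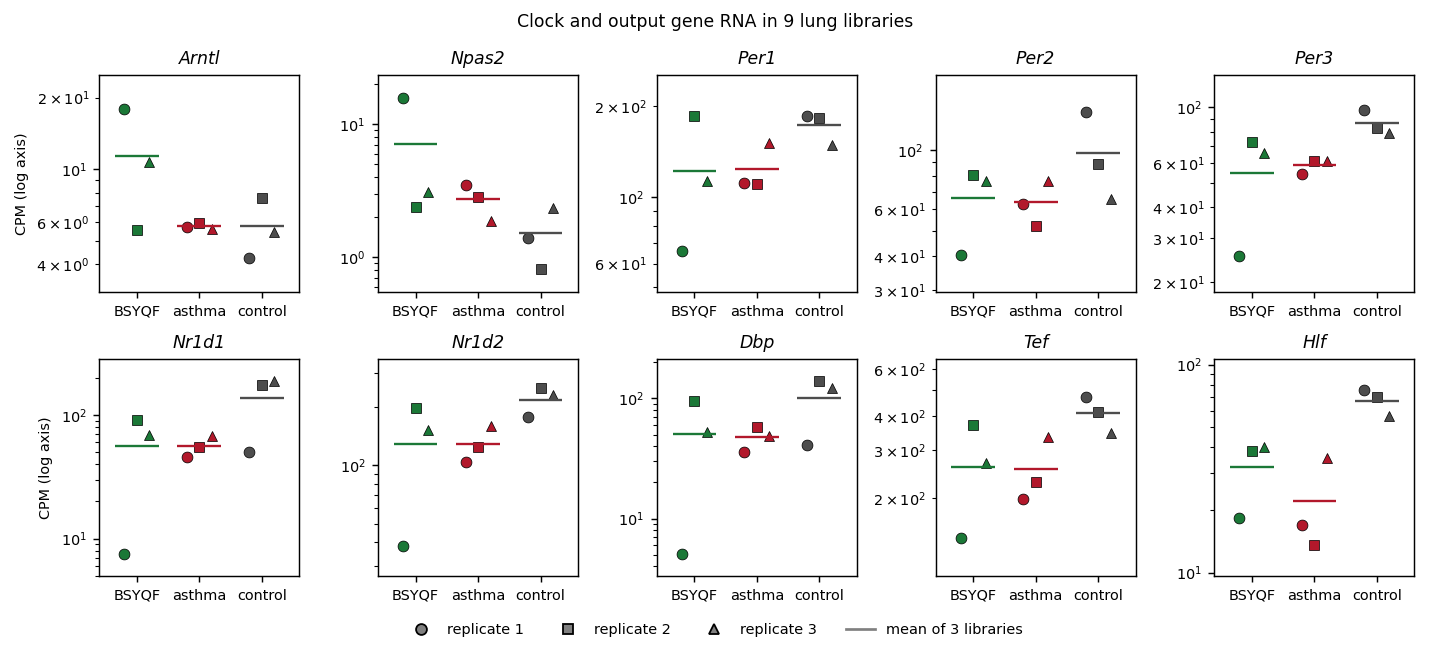
RNA of the 10 clock and output genes in each library, in CPM on a log axis, with the 3 groups along the horizontal axis, symbols for replicates 1, 2 and 3 and a line at the mean. BSYQF replicate 1 is the highest library for Arntl and Npas2 (17.9 and 15.7 CPM) and the lowest for 7 of the other 8 genes, and control replicate 1 lies near the asthma libraries for Nr1d1 and Dbp (50.4 and 41.4 CPM).

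Over the 8 repressor and output genes, BSYQF replicate 1 was the lowest of the 9 libraries in 7, where it was the lowest in 12.5% of all genes tested. The median gap between the highest and the lowest BSYQF library was 1.55 on the log2 scale over the 10 genes (0.989 to 4.1), beside 0.496 over all genes tested. In asthma libraries this median gap was 0.59 over the 10 genes and 0.521 over all genes, and in control libraries it was 0.632 and 0.341. Since the genes were proposed for how they behave in this library, these shares are a description. The ratio of Arntl to Dbp counts sums up the contrast: as log2 of counts plus 1, it was 1.8, -4.08 and -2.3 in BSYQF, against -2.65, -3.25 and -3.1 in asthma and -3.26, -4.19 and -4.46 in control libraries. Only BSYQF replicate 1 had more Arntl than Dbp counts. A library holds RNA of a single time, so these values show unequal levels and not a timed phase.

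Control replicate 1 also differed from the other controls, in another pattern. Its Dbp and Nr1d1 levels were lower, the mean of control replicates 2 and 3 being 3.16 and 3.58 times its level, while its Per2 level was 1.8 times their mean. Its Arntl level was the lowest of the 9 libraries. The log2 ratio of Per2 to Dbp counts was 2.98, -0.23 and 0.54 in BSYQF, against 0.8, -0.15 and 0.65 in asthma and 1.75, -0.66 and -0.89 in control libraries. Control replicate 1 and BSYQF replicate 1 thus shared a high ratio of Per2 to Dbp, but from opposite levels of Per2. Per2 was the highest of the 9 libraries in control replicate 1 (139 CPM) and the lowest in BSYQF replicate 1 (40.6 CPM). These libraries were also at opposite ends in Arntl, Per1 (186 and 66 CPM), Per3 (97.3 and 25.4 CPM) and Tef (474 and 142 CPM), and differed in Npas2. Control replicate 1 was the highest library for 5 of the 10 genes (Per1, Per2, Per3, Tef and Hlf) and for 14.2% of all genes tested.

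**Figure D2:**
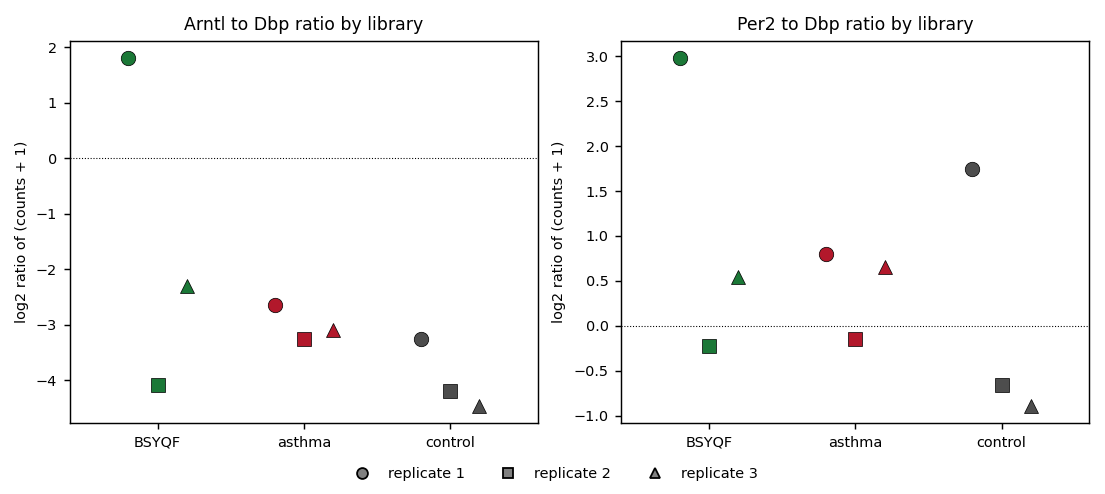
Log2 ratio of Arntl to Dbp counts (left) and of Per2 to Dbp counts (right) in each of the 9 libraries, after 1 was added to each count, by group along the horizontal axis. BSYQF replicate 1 alone is above 0 on the left (1.8), and BSYQF replicate 1 and control replicate 1 are the highest on the right (2.98 and 1.75).

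Asthma against control compared mice with the model and normal mice. The hour at which lungs were taken was not given, so the part of time of day in this and the later comparisons was not tested. The 8 repressor and output genes were all lower on average in asthma lungs, with log2 fold changes ± SE of -0.48 ± 0.3 for Per1, -0.62 ± 0.3 for Per2, -0.56 ± 0.3 for Per3, -1.29 ± 0.75 for Nr1d1, -0.76 ± 0.46 for Nr1d2, -1.09 ± 0.8 for Dbp, -0.7 ± 0.31 for Tef and -1.6 ± 0.37 for Hlf. Arntl was at 0 ± 0.38 and Npas2 at 0.84 ± 0.69. Hlf had 16.9, 13.6 and 35.6 CPM in asthma libraries, against 75.5, 69.5 and 56.4 CPM in control libraries, with no overlap. The median log2 fold change over the 10 genes was -0.66, beside 0.02 over all genes tested. By edgeR's quasi-likelihood test with a Benjamini-Hochberg adjusted p under 0.05 over all genes, 1 of the 10 genes (Hlf, lower) was called, where 12.7% of all genes were. The asthma libraries were all below the control libraries in 4 of the 10 genes (Per3, Nr1d2, Tef and Hlf), and in 18.4% of all genes tested.

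This comparison does not use the BSYQF libraries for its fold changes, but they share its estimate of spread. Without BSYQF replicate 1 the fold changes of asthma against control kept their values within 0.02, while the SE was 0.13 for Per3, 0.2 for Nr1d2, 0.22 for Tef and 0.42 for Nr1d1, against 0.3, 0.46, 0.31 and 0.75 with it. Of the 10 genes 4 were then called (Hlf, Nr1d2, Tef and Per3, all lower), where 17.7% of all genes were. The 10 genes were chosen above all for their values in BSYQF replicate 1, so a smaller SE without it follows from that choice. These added calls are a description and no evidence for a change. Hlf was called in 4 of the 9 fits that each left out 1 library, those without a BSYQF library or without asthma replicate 3, with log2 fold changes of -2.15 to -1.37. It was not called without asthma replicate 1 or 2 or without any 1 of the control libraries. Without control replicate 1 the log2 fold changes of Nr1d1 and Dbp were -1.69 and -1.46, and that of Per2 was -0.28.

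Other cell types also differed between asthma and control libraries, and bulk RNA cannot tell fewer cells of a type from less RNA per cell. The 7 adipocyte markers summed to 19.7 to 40.7 CPM in asthma libraries, against 120 to 594 CPM in control libraries, and 6 of them fell. Lep had no count in any asthma library, Retn none in asthma replicates 1 and 2, Adipoq none in replicate 2 and Plin1 none in replicate 1. The 10 cardiac muscle markers summed to 130 to 239 CPM in asthma libraries, against 454 to 1030 CPM in control libraries, and 9 fell. The 6 mesenchyme markers summed to 1880 to 3970 CPM in asthma libraries, against 4650 to 5410 CPM in control libraries. There was 1 fall (Npnt), or 4 without BSYQF replicate 1 (Npnt, Pdgfra, Tcf21 and Inmt). Inmt, the highest of the 6, had 646, 723 and 2330 CPM in asthma, against 2730, 3370 and 3540 CPM in control libraries. Col1a1 (log2 fold change 0.62 ± 0.25) and Col1a2 (0.45 ± 0.2) were higher in asthma, and edgeR called neither. The same list had 4 calls with DESeq2, and the sums of the 6 endothelial markers were 2250 to 3560 CPM in asthma libraries, against 3140 to 4570 CPM in control libraries, with 1 fall (Kdr). The 8 leukocyte markers summed to 4770 to 8170 CPM in asthma libraries, against 4890 to 6160 CPM in control libraries, with 1 rise (Itgam). Most of this sum was Lyz2, at 4670, 4070 and 7620 CPM in asthma, against 5700, 4400 and 4450 CPM in control libraries. Of the 8 lung epithelium markers 2 rose (Foxj1 and Epcam). A fall or rise here is an edgeR call, where 12.7% of all genes were called, and 17.7% without BSYQF replicate 1. Of the 9 fits that each left out 1 library, Lep, Mybphl and Itgam were called in all 9. Foxj1, Epcam, Kdr, Nppa, Ryr2 and Sln were called in only 3, and the other markers called in the main fit in 4 to 7. The part of these cell types in the lower clock gene levels was not tested.

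BSYQF against asthma compared model mice with and without the formula, and for the clock genes it moved with the BSYQF library left out. With all libraries the log2 fold changes ± SE of the 8 repressor and output genes were between -0.1 ± 0.3 (Per3) and 0.55 ± 0.36 (Hlf), with a median of 0.02. Without BSYQF replicate 1 all 8 were above 0, between 0.25 ± 0.14 (Per3) and 0.84 ± 0.33 (Hlf), with a median of 0.39. Dbp was at 0.11 ± 0.8 with all libraries and 0.65 ± 0.46 without that library, and Nr1d1 at 0 ± 0.74 and 0.52 ± 0.45. Npas2 was at 1.37 ± 0.67 with all libraries and 0.01 ± 0.5 without BSYQF replicate 1, and Arntl at 0.98 ± 0.38 and 0.51 ± 0.35. Without BSYQF replicate 2 the 8 genes moved the other way, to a median of -0.4 with 7 below 0, with Dbp at -0.71 ± 0.79, Nr1d1 at -0.55 ± 0.78 and Arntl at 1.31 ± 0.32. The median over all genes tested was 0 with all libraries and without BSYQF replicate 1, and -0.01 without BSYQF replicate 2. The adipocyte markers summed to 125 to 499 CPM in BSYQF libraries, against 19.7 to 40.7 CPM in asthma libraries (median log2 fold change of the 7 genes 4.77), and the cardiac muscle markers to 461 to 1420 CPM, against 130 to 239 CPM (median of the 10 genes 2.42). EdgeR called 0 of both lists, where all 7 and all 10 had an unadjusted p under 0.05 and DESeq2 called 4 and 8. The part of these cells in the clock gene levels was not tested.

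By edgeR's quasi-likelihood test 0 of the 10 genes were called in BSYQF against asthma, where 0.00678% of all genes were. At an unadjusted p under 0.05 there was 1 (Arntl), and 1171 among all genes. DESeq2 called 0 of the 10, and 0.835% of all genes. Without BSYQF replicate 1 edgeR again called 0 of the 10, where 0% of all genes were called, and 1 (Hlf) had an unadjusted p under 0.05. The BSYQF and asthma libraries overlapped in all 10 genes, where 9.75% of all genes tested showed no overlap. The SE of Dbp and Nr1d1 with all libraries were such that a change of 1 on the log2 scale in either direction lay within 2 SE, so a change of that size was not detectable here.

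BSYQF against control shares its control libraries with asthma against control, so both sets of changes move with the same 3 libraries. The 8 repressor and output genes were all lower on average in BSYQF lungs, with a median log2 fold change of -0.71 with all libraries and -0.35 without BSYQF replicate 1. Nr1d1 was at -1.29 ± 0.75 with that library and -0.79 ± 0.47 without it, Dbp at -0.98 ± 0.8 and -0.46 ± 0.47, and Hlf at -1.05 ± 0.36 and -0.78 ± 0.34. Hlf had 18.3, 38.6 and 40 CPM in BSYQF libraries, against 75.5, 69.5 and 56.4 CPM in control libraries, with no overlap. Per3 also showed no overlap, with all BSYQF libraries below the controls, and Npas2 showed none with all BSYQF libraries above. For Npas2 this rested on 2.38 CPM (41 counts) in BSYQF replicate 2 against 2.34 CPM (44 counts) in control replicate 3. The groups did not overlap in these 3 of the 10 genes, and in 24.8% of all genes tested. Npas2 was at 2.2 ± 0.7 with all libraries and 0.83 ± 0.51 without BSYQF replicate 1.

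In BSYQF against control edgeR called 0 of the 10 genes, where 1.67% of all genes were called, while 4 had an unadjusted p under 0.05, as did 2330 of all 14739 genes. DESeq2 called 1 of the 10 (Npas2), and 5.6% of all genes. Without BSYQF replicate 1 edgeR called 0 of the 10, where 0.684% of all genes were called, and 2 had an unadjusted p under 0.05. Without both BSYQF replicate 1 and control replicate 1, a choice made after their values were seen, the median of the 8 genes in BSYQF against control was -0.37 with 7 below 0. Per2 was then at 0.02 ± 0.22, where it was at -0.57 with all libraries, and Nr1d1 was at -1.18 ± 0.22 and Dbp at -0.83 ± 0.29.

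**Figure D3:**
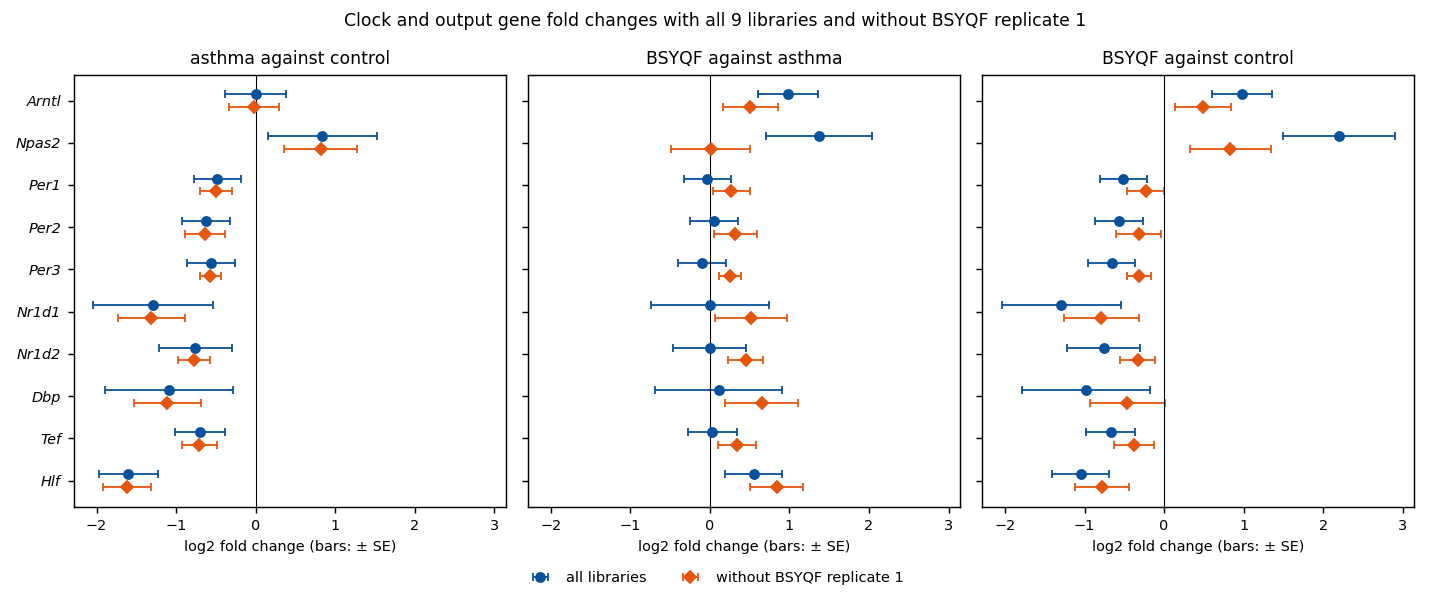
Log2 fold changes of the 10 genes with bars of 1 SE in the 3 comparisons, fitted with all 9 libraries (circles) and without BSYQF replicate 1 (diamonds), with a line at 0. Leaving out this library moves asthma against control by at most 0.02 but narrows its bars, and in BSYQF against asthma it moves Npas2 to 0.01, against 1.37 with all libraries, and the 8 repressor and output genes upward.

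The authors' deposited tables, which list only genes past limits of fold and p-value, hold some of these genes. The authors' deposited table of asthma against control lists Nr1d1 at a log2 fold change of -1.32 (adjusted p as deposited 0.00563), Dbp at -1.11 (0.0166) and Hlf at -1.63 (2.57e-05) among 1746 genes. The authors' deposited table of BSYQF against control lists Npas2 at 2.21 (adjusted p as deposited 0.0173) and Hlf at -1.06 (0.00494) among 896 genes. In the authors' deposited table of BSYQF against asthma, Npas2 is listed at 1.37 with a deposited adjusted p of 0.766. These tables use libraries of this same series and are no separate evidence. BSYQF replicate 1 enters the fold changes of both BSYQF comparisons and not those of asthma against control. In the DESeq2 fit run here on all 3 groups, Nr1d1 and Dbp had adjusted p of 0.259 and 0.386 in asthma against control. In the edgeR fit of the asthma and control libraries alone, the adjusted p were 0.0678 and 0.0888.

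Of 16 other genes of the clock, all tested, 1 rose in asthma against control and 0 fell, where 12.7% of all genes were called. At an unadjusted p under 0.05 by edgeR there were 6 of the 16, and 5028 among all genes. The 1 called was Nfil3, the repressor that competes with DBP, TEF and HLF for D-boxes. Nfil3 had 17.6, 19.2 and 10.5 CPM in asthma libraries, against 8.86, 6.49 and 4.63 CPM in control libraries, with no overlap (log2 fold change 1.24 ± 0.33, edgeR adjusted p = 0.0396). Without BSYQF replicate 1 it was at 1.22 ± 0.3 (edgeR adjusted p = 0.0269). The call was lost without BSYQF replicate 2 or any 1 of asthma replicates 1 and 2 and control replicates 1, 2 and 3, with adjusted p of up to 0.149 in edgeR. In BSYQF libraries Nfil3 had 20.5, 10.5 and 13 CPM, at 1.14 ± 0.33 against control (edgeR adjusted p = 0.127) and 0.81 ± 0.33 without BSYQF replicate 1 (0.404). BSYQF replicate 1 was the highest of the 9 libraries.

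The partners of the 10 genes in the core loop did not pass the test. Clock, the usual partner of BMAL1, had 50.6, 46.2 and 55.2 CPM in BSYQF, against 48.2, 45.8 and 63.6 CPM in asthma and 65.2, 55.5 and 56.3 CPM in control libraries, and BSYQF replicate 1 did not stand apart. Cry1, which represses with the PER proteins and peaks late, had 37.5, 29.1 and 28.6 CPM in BSYQF, against 30.7, 21.8 and 31.3 CPM in asthma and 45.6, 35 and 21.1 CPM in control libraries. Cry2 had 46.4, 75.6 and 66 CPM in BSYQF, against 42.6, 37.8 and 78.9 CPM in asthma and 103, 80.1 and 81.6 CPM in control libraries. In asthma against control Cry2 was at -0.73 ± 0.27 (edgeR adjusted p = 0.0906) and Rora, an activator of Arntl, at -0.79 ± 0.27 (0.074), and DESeq2 called both as well as Nfil3, where it called 22.5% of all genes. The E-box repressor gene Bhlhe41 was at 0.65 ± 0.23 (edgeR adjusted p = 0.0752) and Timeless at 0.48 ± 0.18 (0.0899), neither past the threshold.

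Further from the threshold in asthma against control were other clock genes of the list, with log2 fold changes of -1.79 ± 0.91 for Rorb and -1.1 ± 0.64 for Fbxl21, both under 2 CPM in every library, and -0.28 ± 0.26 for Cry1 and -0.17 ± 0.16 for Clock. The casein kinase genes Csnk1d and Csnk1e, whose products mark PER proteins for decay, were at 0.04 ± 0.13 and -0.24 ± 0.13. Btrc, of a ubiquitin ligase that degrades PER proteins, was at -0.33 ± 0.16. Bhlhe40 was at 0.44 ± 0.27 and Ciart, a repressor of the loop, at -0.2 ± 0.28. EdgeR called 0 of the 16 in BSYQF against asthma, where 1 (Timeless) had an unadjusted p under 0.05 and DESeq2 called 0. It called 0 in BSYQF against control, where 2 had an unadjusted p under 0.05 and DESeq2 called 1 (Nfil3).

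Of 7 other genes with a daily rhythm in many mouse tissues, edgeR called 0 in all 3 comparisons. For asthma against control 2 had an unadjusted p under 0.05 and DESeq2 called 1 (Cys1). In BSYQF against asthma these counts were 0 and 0, and in BSYQF against control 1 and 0. Wee1, a kinase that holds back mitosis and an E-box target of the clock, had 13.7, 41.7 and 29.5 CPM in BSYQF, against 25.6, 20.2 and 37.4 CPM in asthma and 52.6, 37.8 and 26.3 CPM in control libraries. Usp2, a ubiquitin protease, had 16.8, 31.6 and 20.5 CPM in BSYQF, against 18.3, 25.6 and 25.6 CPM in asthma and 30.9, 22.7 and 20.8 CPM in control libraries. BSYQF replicate 1 was the lowest library for Wee1, Usp2 and Tspan4. Leo1, a subunit of the PAF1 complex, had 23.7, 13.9 and 15.5 CPM in BSYQF, against 19.6, 20 and 15.1 CPM in asthma and 13.7, 11 and 14 CPM in control libraries, and BSYQF replicate 1 was the highest. In asthma against control Cys1 was at -0.98 ± 0.32 (edgeR adjusted p = 0.0659), Lonrf3 at -0.99 ± 0.43 (0.132) and Tsc22d3, also a glucocorticoid target, at -0.29 ± 0.38 (0.616). Over the 23 genes of both lists BSYQF replicate 1 was the lowest library in 3 and the highest in 2. Over all genes tested it was the lowest in 12.5% and the highest in 11.9%. Control replicate 1 was the highest in 10 of the 23, and in 14.2% of all genes. Asthma replicate 2 was the lowest in 9 of the 23, and in 21.7% of all genes.

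**Figure D4:**
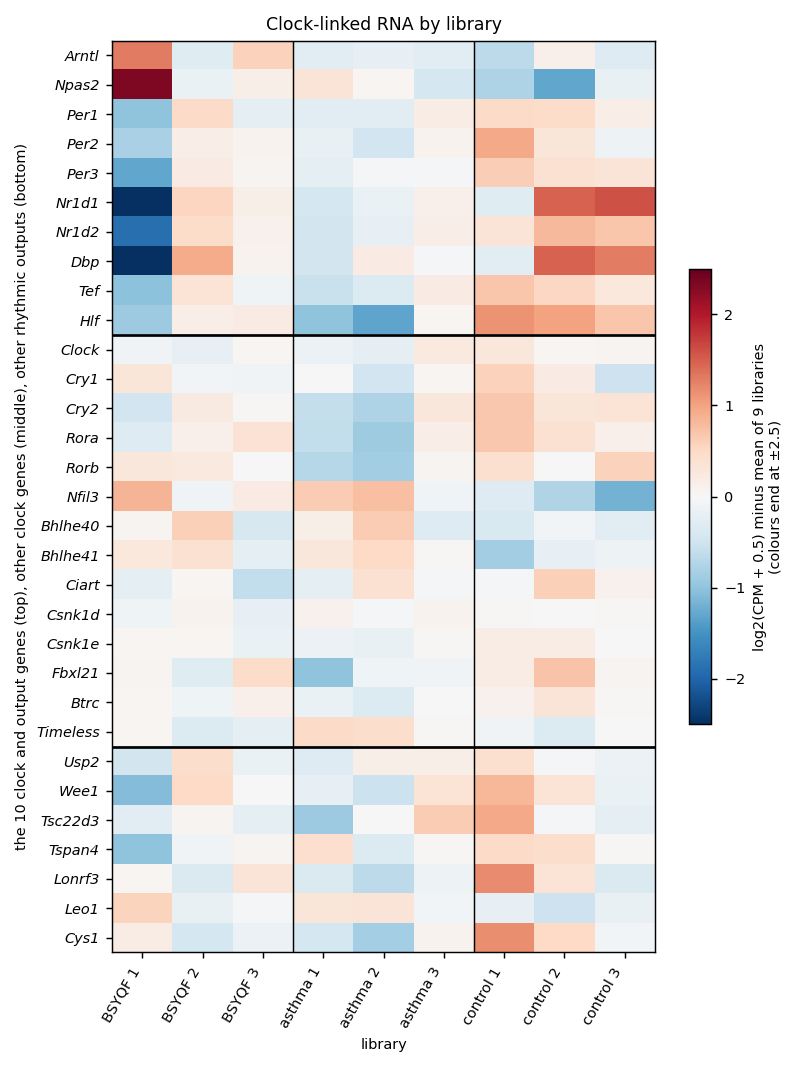
Levels of the 10 genes and of other clock and rhythmic genes in the 9 libraries, as log2 CPM relative to each gene's mean over all libraries, with red higher and blue lower and lines between the groups. BSYQF replicate 1 is red for Arntl and Npas2 and blue for Dbp and Nr1d1, while most of the other clock genes show no such contrast in that library.

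Glucocorticoids and heat reset clock genes in cultured cells, so lists of their known targets were set beside them. In asthma against control 2 of 10 glucocorticoid response genes rose, the metallothioneins Mt1 (2.12 ± 0.41, edgeR adjusted p = 0.0148) and Mt2 (3.18 ± 0.57, 0.0137), which metals and inflammation also induce, where 12.7% of all genes were called. Both calls were lost in 4 of the 9 fits that each left out 1 library, those without asthma replicate 1 or 2 or control replicate 2 or 3. Klf9, a clock-linked glucocorticoid target, had 58, 39.2 and 139 CPM in asthma libraries, against 296, 261 and 155 CPM in control libraries (-1.59 ± 0.5, edgeR adjusted p = 0.0635, and 0.0369 without BSYQF replicate 1). Control replicate 1 had the highest levels of Fkbp5, at 195 CPM against 25.6 and 17.1 CPM in the other controls, and of Zbtb16, at 281 CPM against 87.2 and 35.6 CPM. It had the lowest levels of the 9 libraries for Sgk1, at 141 CPM against 211 and 172 CPM in the other controls, and for Dusp1, at 114 CPM against 310 and 214 CPM. Its Per2 level was the highest of the 9 libraries too. BSYQF replicate 1 had 30.9 CPM of Fkbp5 and 16.7 CPM of Zbtb16, where BSYQF replicates 2 and 3 had 65.8 and 39 CPM of Fkbp5 and 35.6 and 36.2 CPM of Zbtb16. Klf9 was also lower in BSYQF replicate 1, at 54 CPM against 150 and 123 CPM. Other genes of the list ran the other way there: Sgk1 was the highest of the 9 libraries at 216 CPM, and Mt1 had 165 CPM against 145 and 67.8 CPM. All 10 genes of the list summed to 1030, 1300 and 986 CPM in BSYQF replicates 1, 2 and 3. The part of glucocorticoid signalling in the clock gene levels was not tested.

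The 8 heat shock and cold-inducible genes summed to 1060, 780 and 747 CPM in BSYQF, against 1080, 1380 and 831 CPM in asthma and 921, 680 and 693 CPM in control libraries. EdgeR called 0 of them in all 3 comparisons. For asthma against control 3 had an unadjusted p under 0.05 (Hsp90aa1 at 0.6 ± 0.24, Hspa8 at 0.74 ± 0.3 and Hsph1 at 1.07 ± 0.43) and DESeq2 called 1 (Hsph1), and in both BSYQF comparisons these counts were 0 and 0. Hspa1b, a heat-inducible chaperone, had 36.4, 11.5 and 8.22 CPM in BSYQF, against 9.73, 46 and 11.1 CPM in asthma and 27.6, 7.49 and 10.5 CPM in control libraries. The 8 immediate early genes, which respond within minutes to handling and other stimuli, summed to 1770, 1840 and 811 CPM in BSYQF, against 816, 787 and 1080 CPM in asthma and 966, 1140 and 1060 CPM in control libraries. EdgeR called 0 of these in all 3 comparisons. In asthma against control 1 had an unadjusted p under 0.05 (Jun, -0.62 ± 0.25), in BSYQF against asthma 4 and in BSYQF against control 4, and DESeq2 called 0, 0 and 1 (Junb). BSYQF replicates 1 and 2 had the highest immediate early sums of the 9 libraries. The part of heat, handling or other stimuli in the clock gene levels was not tested.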

How the data were processed

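Per the labels' protocols, lung RNA was isolated with Trizol and made into NEBNext Ultra libraries. The build mm10 and the tools STAR, HTSeq, cutadapt, FastQC and DESeq2 stand in the submitters' processing notes, without versions; the strand setting was not given in the sources used here. Unnormalized counts for each gene in each library, as the authors deposited them, entered every fit. Per the file headers, the 3 deposited comparison tables hold log2 fold changes with raw and adjusted p-values; their 36 columns of values per library were not used.

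Counts were filtered with filterByExpr, scaled with TMM (factors 0.914 to 1.07) and modelled by edgeR 4.0.16 under R 4.3.3 (robust quasi-likelihood, 3 groups in 1 model, no replicate block). Calls needed an adjusted p (Benjamini-Hochberg, over all genes tested) under 0.05. The fit was tested on simulated data. Alternatives were DESeq2 1.42.0, other scaling, filter and dispersion settings, a replicate block, 2-group fits and leaving out each library. The 10 genes and the gene lists were chosen with earlier results of these data known. Named genes were the 10 genes, the other clock and rhythmic genes, called members of the other lists with up to 2 not called, and the 10 genes most and 10 least like the clock score; Fkbp5, Zbtb16, Sgk1, Dusp1, Hspa1b, Sphk2 and Thra were picked after their values were seen. Coordinates are 1-based from the mm10 annotation. Some genes of the lists are counted but not reported here by name. The labels do not say whether replicate numbers pair the libraries, and the main fit did not pair them.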

Additional observations from a re-analysis of the deposited data

How the results depend on the processing

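Among the 30 fold changes of the clock genes (10 genes in 3 comparisons), none moved by more than the spread between replicates under RLE scaling, DESeq2, no filter, the newer dispersion method, 2-group fits or the replicate block. Without asthma replicate 3, 1 did, without BSYQF replicate 1, 2 did, and without both BSYQF replicate 1 and control replicate 1, 4 did. Within that spread, signs could still change. In BSYQF against asthma the median of the 8 repressor and output genes was 0.02 with 3 below 0 in the main fit. With the replicate block this median was -0.14 with 6 below 0, and Dbp was at -0.47 ± 0.59, against 0.11 ± 0.8 in the main fit. In asthma against control 1869 genes were called, against 3315 with DESeq2, 712 without both libraries and 171 to 4262 when each library was left out. In BSYQF against asthma 1 was called, against 123 with DESeq2, 0 in the 2-group fit, 3 without both libraries and 0 to 114 with each left out. In BSYQF against control 246 were called, against 826 with DESeq2, 389 in the 2-group fit, 41 without both libraries and 9 to 563 with each left out. Of the 10 clock genes 1 was called in asthma against control, against 3 in the 2-group fit, 4 without both libraries and 0 to 4 with each left out. In BSYQF against control 0 were called, against 1 with DESeq2 and 0 to 0 with each left out, and in BSYQF against asthma 0 in every fit run. The causes were not tested. Same-numbered libraries correlated at -0.26 to 0.34 in their deviations, with 2 of 9 pairs over 0.1, and libraries of different number at -0.43 to 0.37. These correlations cannot decide whether the numbers pair mice, since deviations within a group sum to 0. With the replicate block 1469 genes were called in asthma against control, 15 in BSYQF against asthma and 237 in BSYQF against control. With 3 libraries a group and 14 to 296 counts of Npas2 and Arntl, small changes of the activators were not detectable.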

Other observations

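A clock score per library, the mean standardised log2 CPM of the 8 repressor and output genes minus that of Arntl and Npas2, was -4.18, 0.83 and -0.57 in BSYQF, against -0.53, -0.36 and 0.59 in asthma and 1.75, 1.53 and 0.95 in control libraries. Of 13999 other genes with a mean of at least 1 CPM, those whose levels followed the score most closely over the 9 libraries were Ifit1bl2, Atxn3, Mtf1, Vps54, Klhl15, Sall1, Pot1a, Zfp251, Mfap3l and Adam7. Among those that ran most opposite to it were Fndc10, Wdr91, Scrn2, Cd2bp2, Cd40, Arhgap25, Mif4gd, Rpl36a and Snrnp25. BSYQF replicate 1 held the extreme score, and without it 2 of the 20 genes at both ends, Mfap3l and Fndc10, were still among the 10 at their end. In BSYQF replicate 1 Sall1 and Adam7 had 0 and 0.0606 CPM, under the level of 3 counts. Fndc10 had 20.9, 7.03 and 11.4 CPM in BSYQF, against 10, 10 and 7.44 CPM in asthma and 6.65, 6.26 and 7.34 CPM in control libraries. Mfap3l had 20.2, 36 and 27.8 CPM in BSYQF, against 25.6, 25.8 and 33.6 CPM in asthma and 40.4, 37.9 and 35.9 CPM in control libraries. The likeness is a description over libraries that share their groups.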
